A study of Homo sapiens with 12 samples.

Results

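Genes of the ubiquitin and proteasome system were followed in tumours of Hep3B cells, a human hepatocellular carcinoma line, treated with bufotalin or given as control. Bufotalin is a bufadienolide of toad venom that acts as a cardiac glycoside. The members were the genes of the deposited mRNA table whose symbols begin with UBE2, UBE3, TRIM, RNF, CUL, FBXO, FBXL, FBXW, KLHL, USP or PSM followed by a family number or letter. The rule set aside a single conjugating enzyme gene, and it found 104 members among 4988 genes. They were 26 RNF, 21 TRIM, 12 FBXO, 12 PSM, 10 KLHL, 9 USP, 6 UBE2, 4 FBXL, 2 CUL and 2 FBXW genes, and 0 UBE3 genes.

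The groups were bufotalin-treated Hep3B xenografts and Hep3B xenografts labelled as control, each with 3 total RNA libraries. The sample labels call the tissue a xenograft, whereas the text on the series as a whole speaks of Hep3B cells, and the sources used here give no host animal, dose or time of treatment. Hep3B is a single established line, and the labels do not say that the replicates came from separate animals, so the p-values below measure only the spread between these libraries, which may be technical. In bulk tumour RNA, fewer cells of a type and less RNA per cell cannot be told apart.

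Ubiquitin is activated by an E1 enzyme, passed to an E2 conjugating enzyme and attached to a substrate with the help of an E3 ligase, and chains of ubiquitin send many proteins to the proteasome. Most members encode ligases or their parts: most TRIM and RNF proteins carry RING domains, CUL genes encode the cullin scaffolds, and F-box (FBXO, FBXL, FBXW) and KLHL proteins bring substrates to cullins. USP genes encode deubiquitinases, which remove ubiquitin, and PSM genes encode the proteasome core, its regulatory particle and its activators. Interferon induces alternative core subunits and the PA28 activator, which together alter the peptides offered on class I molecules.

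Values are FPKM, fragments scaled to gene length and library size, as the authors deposited them, and the sequencing depth behind them is unknown. A log2 fold change is the difference of mean log2(FPKM + 1), bufotalin minus control, with its SE, and a single signed or unsigned number in parentheses after a gene or its values is its log2 fold change. Errors after ± are SD over 3 libraries. A gene is called when limma's adjusted p, over the whole table, is under 0.05, and genes with a mean under 0.5 FPKM over the 6 libraries were not tested. The pseudocount of 1 FPKM makes the fold changes of low genes smaller. The table sums to 114207 to 121337 FPKM in bufotalin and 102677 to 105803 FPKM in control libraries, and the median FPKM of its genes was 6.10 to 6.26 in bufotalin and 7.80 to 8.08 in control libraries. Of the markers of the labelled cell type, 3 of 20 were in the table: KRT8 was higher in bufotalin libraries and TF was under the minimum. All 7 fibroblast and stroma markers tested were lower, and the 8 in the table, out of 18, summed to 23.9 to 29.8 FPKM in bufotalin and 84.2 to 88.7 FPKM in control libraries. The summed level of the endothelial markers, 2 of 11, was 8.46 to 10.6 FPKM in bufotalin and 32.2 to 33.7 FPKM in control libraries, carried by EGFL7, which was lower (-1.84). The endothelial cadherin CDH5 was higher (0.86), at 0.746, 0.844 and 1.24 FPKM in bufotalin and 0.0888, 0.00702 and 0.101 FPKM in control libraries. The leukocyte markers, 3 of 12, summed to 4.61 to 6.82 FPKM in bufotalin and 3.18 to 3.53 FPKM in control libraries. Those of erythroid cells and muscle, 2 of 9, summed to 0.392 to 0.633 FPKM in bufotalin and 2.06 to 15.2 FPKM in control libraries. That upper end came from HBB, which was not called and was at 13.4 FPKM in control library 3 and at 0.537 and 0.470 FPKM in the other control libraries, while DES was lower (-1.49). None of the markers in the table was at 0 in all libraries, and their part in the results below was not tested.

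Among the members, 38 rose and 55 fell in bufotalin libraries, and 5 were not called, out of 98 tested. Over all genes tested, 93.2% were called, 44.3% higher and 48.8% lower, so the members' 38.8% higher and 56.1% lower lie close to a background that the authors selected on these same libraries. The values of the groups did not overlap for 91 of the 98 members, against 92.5% of all genes tested. Changes of at least 2-fold were mostly falls: 27 members were at least 2-fold lower and 5 at least 2-fold higher, beside 25.9% and 7.14% of all genes tested. The 5 were RNF24, KLHL21, UBE2S, USP2 and KLHL24. The pseudocount kept some members out of both counts. Examples are RNF39, with means of 1.86 FPKM in bufotalin and 0.774 FPKM in control libraries, and FBXL4, with 2.38 and 5.76 FPKM.

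Members that rose had higher median levels than those that fell, and the same held over all called genes of the table. The 38 members that rose had a median of 16.9 FPKM in bufotalin and 10.5 FPKM in control libraries, and a median log2 fold change of 0.53. Those that fell, 55 in number, had medians of 3.86 FPKM in bufotalin and 9.22 FPKM in control libraries, and a median log2 fold change of -0.998. All called genes of the table had median log2 fold changes of 0.61 for those higher and -1.02 for those lower. Their median levels were 19.7 FPKM in bufotalin and 12.1 FPKM in control libraries for those higher. For those lower they were 2.97 FPKM in bufotalin and 8.22 FPKM in control libraries. Few genes lay between the arms: 3 of 98 members and 114 of 4273 genes tested had a log2 fold change within 0.25 of 0, so a median can jump from one arm to the other. The median over all members was -0.66, beside 0.13 over all genes tested. Scaling the libraries to equal medians raised the median of all genes from 0.13 to 0.31 and that of the members to -0.49.

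Low values decided which members were tested. The 6 below the minimum were FBXO15, FBXO36, KLHL3, PSMB8, TRIM40 and TRIM6-TRIM34. Each had a lower value in every bufotalin library than in any control library, in a table selected on these same libraries. Among all genes tested, 92.5% had groups without overlap, and the share among untested genes was not counted. FBXO15 and TRIM6-TRIM34 were listed at 0 in all 3 bufotalin libraries. Another 5, FBXO24, KLHL10, TRIM10, TRIM31 and TRIM69, passed only through their control level, and 0 members passed only through their bufotalin level, so counts of members that passed are not counts of all members. The loci of 13 members overlap another gene of the table, and without the strand of the counting the reads of such pairs cannot be told apart. That number counts genes of the table only. By RefSeq, UBE2S overlaps the coding gene RPL28, KLHL21 overlaps PHF13, PSME1 overlaps EMC9 and PSME2 overlaps RNF31, among others.

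**Figure D1:**
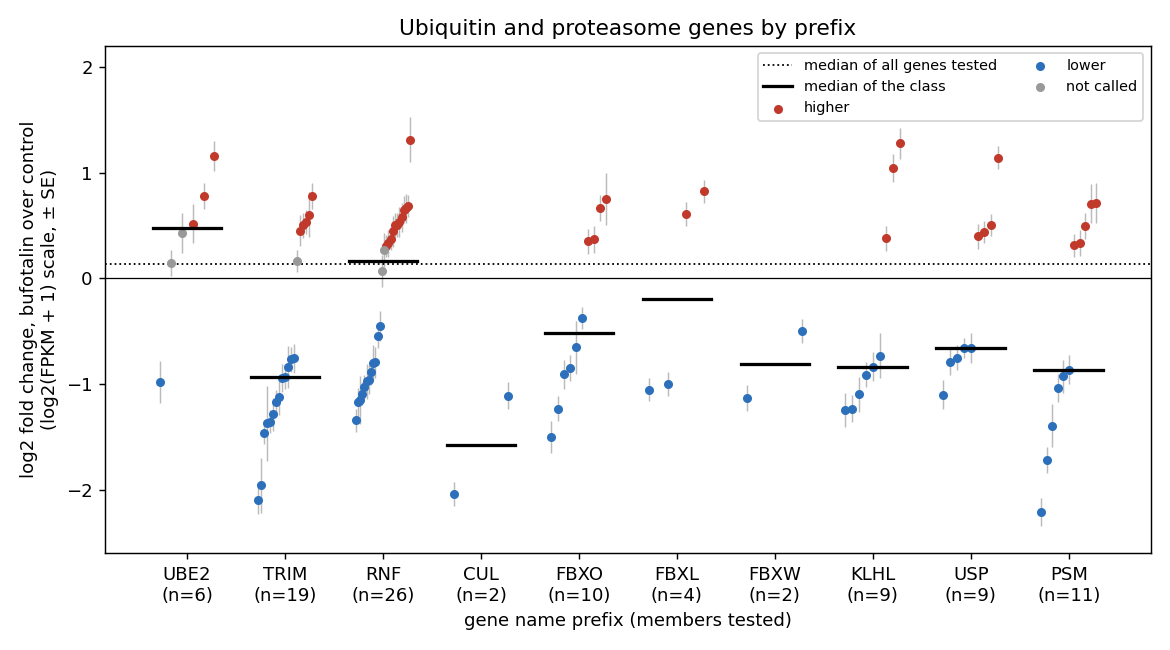
Log2 fold change of bufotalin over control (vertical axis, log2(FPKM + 1) scale) of each tested member, by gene name prefix along the horizontal axis. Points are genes with their SE, red where called higher, blue where called lower and grey where not called. Thick bars are class medians, and the dotted line is the median of all genes tested, 0.13. TRIM, CUL, FBXW and KLHL genes lie mostly below 0, and RNF genes are split 12 higher and 12 lower.

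By class, the 2 CUL and 2 FBXW genes all fell, and the other classes went both ways. TRIM genes fell in 13 and rose in 5 of 19 cases, KLHL genes fell in 6 and rose in 3 of 9, and FBXO genes fell in 6 and rose in 4 of 10. RNF genes split evenly, 12 higher and 12 lower of 26, as did the 4 FBXL genes, 2 each way. PSM genes rose in 5 and fell in 6 of 11 cases, and USP genes rose in 4 and fell in 5 of 9. UBE2 genes rose in 3 and fell in 1 of 6. Median log2 fold changes were -1.57 for CUL, -0.94 for TRIM, -0.86 for PSM, -0.84 for KLHL, -0.81 for FBXW, -0.51 for FBXO, 0.17 for RNF and 0.47 for UBE2. The USP median of -0.66 and the FBXL median of -0.20 turned positive, to 0.0099 and 0.052, under quantile normalization. Over all genes tested, 44.3% were called higher and 48.8% lower. RNF genes, at 46.2% higher and 46.2% lower, PSM genes, at 45.5% and 54.5%, and USP genes, at 44.4% and 55.6%, lay near these shares. TRIM genes were 26.3% higher and 68.4% lower. Among the falls counted here, TRIM10, TRIM31, TRIM69, KLHL10 and FBXO24 passed the minimum only through their control level. They could therefore not have been called higher. No test between classes was made.

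All 4 interferon-inducible proteasome genes that could be tested fell. PSMB9 (chromosome 6, 32844078 to 32859851), which encodes an alternative catalytic subunit of the immunoproteasome, had 1.21, 0.741 and 0.829 FPKM in bufotalin libraries, against 6.98, 8.003 and 8.66 FPKM in control libraries. Its highest bufotalin value lay far below its lowest control value, and its log2 fold change of -2.21 was the lowest of all members tested (SE 0.13, adjusted p 1.71e-06 by limma). PSMB10, another alternative catalytic subunit, had 1.99, 3.52 and 2.64 FPKM in bufotalin libraries, against 9.40, 10.7 and 6.34 FPKM in control libraries (-1.39, SE 0.20, adjusted p 0.000205). PSMB8 completes the set of alternative catalytic subunits and its locus overlaps that of PSMB9. PSMB8 was too low to be tested, with 0.0249, 0.0545 and 0.0269 FPKM in bufotalin libraries, against 0.202, 0.245 and 0.390 FPKM in control libraries. Every bufotalin value of these genes was under every control value.

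Both genes of the PA28 activator that interferon induces fell too. PSME1, its alpha subunit, had 16.7, 13.5 and 14.3 FPKM in bufotalin libraries, against 47.7, 49.996 and 55.3 FPKM in control libraries (-1.72, SE 0.12, adjusted p 2.78e-06). PSME2, its beta subunit, had 25.7, 17.7 and 19.5 FPKM in bufotalin libraries, against 43.6, 34.9 and 42.8 FPKM in control libraries (-0.93, SE 0.15, adjusted p 0.000332). Neither gene had overlapping groups, and PSME1 had the larger fall. PSME2 has processed copies elsewhere in the genome, so the assignment of its reads is uncertain. Summed, PSMB8, PSMB9, PSMB10, PSME1 and PSME2 came to 39.4 ± 5.38 FPKM in bufotalin and 108 ± 4.86 FPKM in control libraries. The other 7 PSM genes came to 324 ± 20.7 FPKM in bufotalin and 330.5 ± 26.3 FPKM in control libraries. That second sum joins genes that rose with genes that fell. PSMD4 alone averaged 63.1 ± 8.37 FPKM in bufotalin and 130 ± 11.8 FPKM in control libraries, and most of the others rose.

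The promoters of 4 of these genes are shown because they were the largest proteasome falls apart from PSMD4, for which the table held no window. They were chosen after their values were seen. Each sequence is the RefSeq promoter on GRCh38.p14, 250 bases before to 50 after the annotated start, 5′ to 3′ on the strand of the gene. Capitals mark letters that match either GAAANNGAAA, a form of the interferon-stimulated response element, or TGACNNNGC, the core of the antioxidant response element, on either strand, and the matches of the 2 motifs do not overlap in these windows.
PSMB9 (chr6:32853942-32854241, plus strand): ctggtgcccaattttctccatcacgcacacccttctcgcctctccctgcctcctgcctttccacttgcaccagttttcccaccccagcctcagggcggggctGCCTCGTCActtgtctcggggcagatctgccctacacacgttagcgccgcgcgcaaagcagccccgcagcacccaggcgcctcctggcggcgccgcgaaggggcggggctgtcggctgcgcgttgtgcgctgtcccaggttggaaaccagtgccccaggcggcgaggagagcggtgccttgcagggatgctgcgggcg
PSMB10 (chr16:67936801-67937100, minus strand): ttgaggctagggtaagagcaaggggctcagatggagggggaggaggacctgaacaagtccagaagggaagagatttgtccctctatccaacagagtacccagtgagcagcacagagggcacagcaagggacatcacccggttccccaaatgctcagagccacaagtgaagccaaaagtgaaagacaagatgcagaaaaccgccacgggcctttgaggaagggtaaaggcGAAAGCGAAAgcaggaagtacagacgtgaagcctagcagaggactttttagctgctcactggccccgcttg
PSME1 (chr14:24135944-24136243, plus strand): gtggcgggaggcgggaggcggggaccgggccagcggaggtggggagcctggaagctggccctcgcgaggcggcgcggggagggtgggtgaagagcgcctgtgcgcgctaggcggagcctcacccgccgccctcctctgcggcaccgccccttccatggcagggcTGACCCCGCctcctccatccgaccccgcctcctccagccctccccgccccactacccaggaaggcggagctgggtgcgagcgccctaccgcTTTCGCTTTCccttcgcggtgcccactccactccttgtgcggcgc
PSME2 (chr14:24146561-24146860, minus strand): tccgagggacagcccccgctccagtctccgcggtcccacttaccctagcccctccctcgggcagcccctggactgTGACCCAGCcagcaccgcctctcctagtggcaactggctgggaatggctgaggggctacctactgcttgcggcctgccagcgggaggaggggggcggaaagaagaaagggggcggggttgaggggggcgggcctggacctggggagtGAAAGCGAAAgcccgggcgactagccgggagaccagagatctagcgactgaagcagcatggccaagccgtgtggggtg

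The interferon element, a search added after the values were seen, was found in the windows of PSMB10, PSME1 and PSME2 above and in that of PSMB8, in each case with the letters GAAAGCGAAA. It was in 4 of 12 PSM windows, in 10 of 105 windows of all members, and in 3.58% of 35097 windows of all genes. None of the 5 PSM genes that rose had it, 0 of 5. Among all members with a window, it was in 8 of 55 windows of genes that fell, those of PSMB10, PSME1, PSME2, TRIM2, TRIM5, TRIM14, TRIM16 and TRIM69, and in 1 of 33 windows of genes that rose, that of TRIM26. PSMB9 had no match of this element in its window. The antioxidant core was in 5 of 12 PSM windows, those of PSMB9, PSME1, PSME2, PSMD9 and PSMD12, in 20 of 105 member windows and in 13.3% of all windows. By direction, it was in 12 of 33 windows of members that rose and 8 of 55 windows of members that fell. A match is a description of letters, and 80 of the 104 members had a window.

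Other interferon-inducible members fell as well. USP18, which removes the ubiquitin-like modifier ISG15 and restrains the interferon receptor, had 3.30, 3.004 and 2.78 FPKM in bufotalin libraries, against 6.41, 7.63 and 9.04 FPKM in control libraries (-1.10, SE 0.13, adjusted p 5.18e-05). TRIM69, a RING ligase with antiviral activity, had 0.256, 0.221 and 0.297 FPKM in bufotalin libraries, against 2.25, 2.65 and 2.51 FPKM in control libraries. Both had groups that lay well apart, and TRIM69 fell by 1.46 on the log2 scale, or by 3.22 with a pseudocount of 0.01 FPKM. TRIM14, an adaptor of antiviral signalling, averaged 6.74 ± 0.820 FPKM in bufotalin and 12.1 ± 0.826 FPKM in control libraries (-0.77). TRIM5, which restricts retroviral capsids, averaged 1.70 ± 0.727 FPKM in bufotalin and 3.74 ± 0.688 FPKM in control libraries (-0.84), and under quantile normalization its call was lost at -0.17. In the list of immunoproteasome and interferon-inducible genes, 9 of 10 tested fell and 1 rose, beside 48.8% of all genes tested called lower and 44.3% higher. The list names 21 genes, of which 11 were in the table. It was chosen with earlier results of these data known, so its count is not independent evidence. Its median was -1.25, beside 0.13 for all genes tested, and TRIM69 and HERC6 passed the minimum only through their control level. The gene that rose was HERC5, the ligase for ISG15, at 20.5 ± 0.974 FPKM in bufotalin and 12.7 ± 0.858 FPKM in control libraries (0.65), while its relative HERC6 fell (-1.57, or -4.50 with a pseudocount of 0.01 FPKM).

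**Figure D2:**
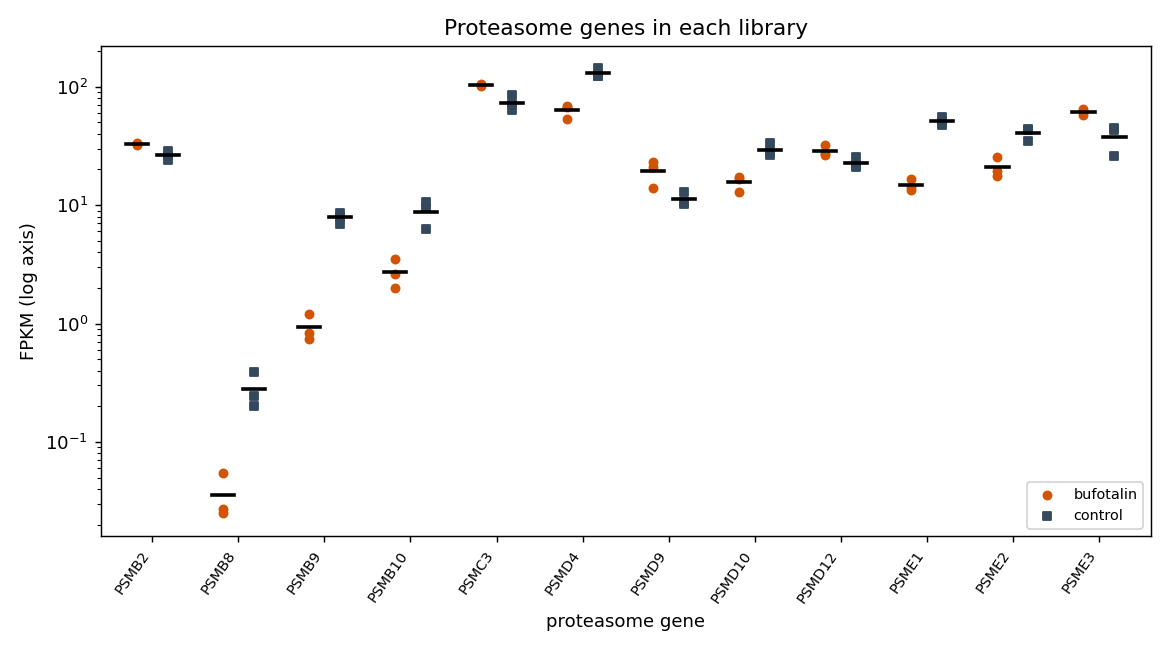
FPKM (vertical log axis) of the 12 proteasome genes along the horizontal axis in each library. Circles are bufotalin and squares control libraries, with a bar at each mean. PSMB8, PSMB9, PSMB10, PSME1 and PSME2 have all bufotalin values under all control values, whereas PSMC3, PSMD9 and PSME3 have them above.

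Proteasome genes outside the interferon group went both ways. PSMC3, an ATPase of the base of the regulatory particle, had 103, 105 and 101 FPKM in bufotalin libraries, against 71.98, 84.4 and 63.8 FPKM in control libraries (0.50, SE 0.12, adjusted p 0.00410). PSME3, the nuclear PA28 gamma activator, had 64.7, 57.2 and 61.2 FPKM in bufotalin libraries, against 26.1, 42.9 and 44.5 FPKM in control libraries (0.71). PSMD9, an assembly chaperone of the base, had 21.004, 23.4 and 13.9 FPKM in bufotalin libraries, against 10.2, 10.7 and 13.02 FPKM in control libraries (0.71). In all 3 genes the lowest bufotalin value was above the highest control value, by a small margin in PSMD9. PSMB2, a beta subunit of the core, averaged 32.8 ± 0.862 FPKM in bufotalin and 26.3 ± 2.48 FPKM in control libraries (0.31), and PSMD12, of the lid, averaged 28.9 ± 2.96 FPKM in bufotalin and 22.7 ± 2.37 FPKM in control libraries (0.34). Among these 5 rises only that of PSMD9 was still called under quantile normalization, with PSMC3 at 0.21, PSME3 at 0.47, PSMB2 at 0.16 and PSMD12 at 0.21. The PSMB2 call also ended without bufotalin replicate 1 or control replicate 1 or 3, and that of PSMD12 without bufotalin replicate 1 or control replicate 2 or 3. Without control replicate 1, at 26.1 FPKM, the log2 fold change of PSME3 was 0.47, still called.

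PSMD4, a ubiquitin receptor of the regulatory particle and the most abundant PSM gene of the table by mean FPKM, had 68.8, 66.97 and 53.5 FPKM in bufotalin libraries, against 123, 143 and 123 FPKM in control libraries (-1.03, SE 0.13, adjusted p 6.83e-05). PSMD10, the assembly chaperone gankyrin, known as an oncoprotein of liver cancer, had 17.5, 16.6 and 12.99 FPKM in bufotalin libraries, against 26.5, 27.9 and 33.4 FPKM in control libraries (-0.86, SE 0.14, adjusted p 0.000309). In both, every bufotalin library was below every control library, and their calls were kept in each alternative tried.

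Of 9 genes that assemble or regulate the proteasome, 6 rose and 3 fell, with a median of 0.47, beside 44.3% of all genes tested called higher and 48.8% lower. The chaperone gene POMP averaged 80.9 ± 9.37 FPKM in bufotalin and 51.9 ± 2.63 FPKM in control libraries (0.63), and NFE2L1, the activator of proteasome genes after proteasome loss, averaged 26.8 ± 2.63 FPKM in bufotalin and 19.5 ± 5.37 FPKM in control libraries (0.47). The NFE2L1 call was near the threshold (adjusted p 0.0436 by limma). Its control libraries had 21.9, 13.3 and 23.2 FPKM, and its lowest bufotalin value was 24.1 FPKM. DDI2, the protease that releases that activator, rose (0.57), whereas NGLY1, which removes its glycans, fell, averaging 7.07 ± 0.548 FPKM in bufotalin and 21.2 ± 1.97 FPKM in control libraries (-1.46). NFE2L2, the antioxidant response activator, averaged 67.5 ± 4.64 FPKM in bufotalin and 42.03 ± 4.15 FPKM in control libraries (0.67), and the ubiquitin-binding autophagy receptor SQSTM1 averaged 301 ± 28.8 FPKM in bufotalin and 184 ± 18.8 FPKM in control libraries (0.71). PAAF1, which binds ATPases of the regulatory particle, fell (-1.76), as did UBXN4 (-0.85), and AKIRIN2, an importer of proteasomes into the nucleus, rose (0.29).

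**Figure D3:**
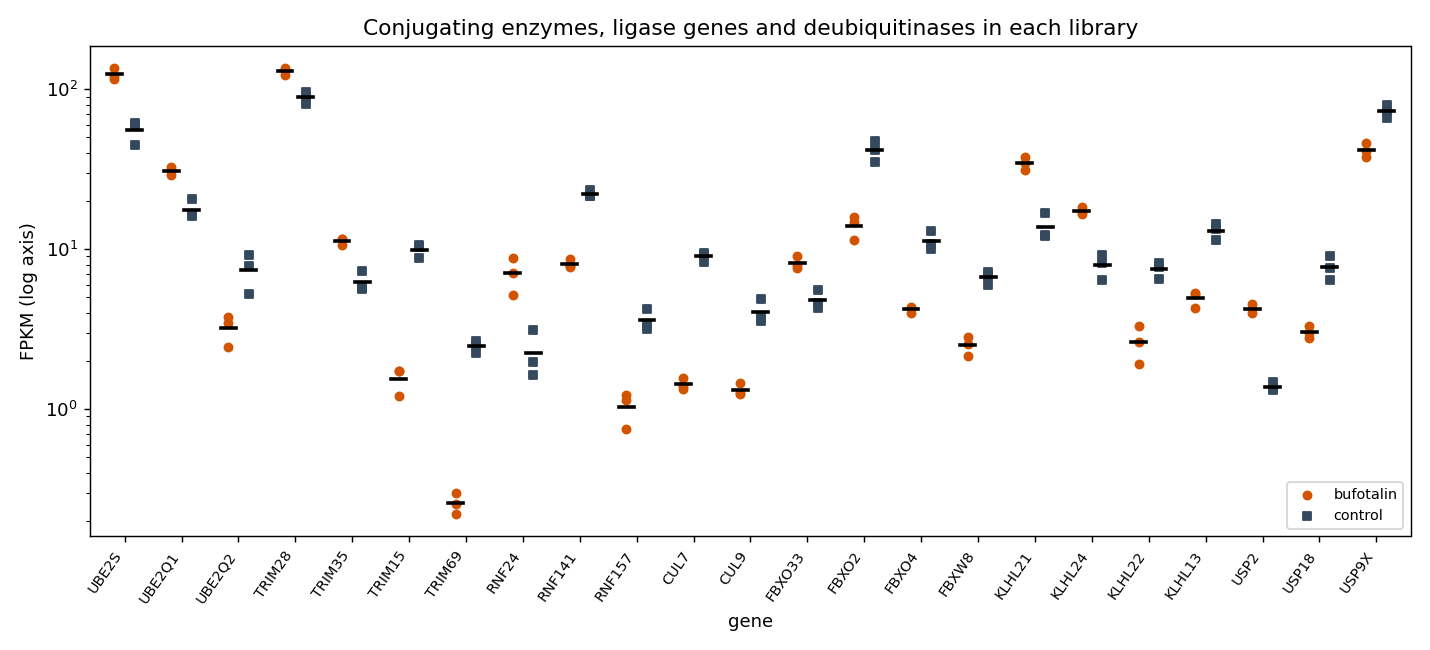
FPKM (vertical log axis) in each library of conjugating enzyme, ligase and deubiquitinase genes along the horizontal axis. Circles are bufotalin and squares control libraries, with a bar at each mean. UBE2S, KLHL21 and USP2 are higher in every bufotalin library, and TRIM15, CUL7 and FBXO2 are lower in every bufotalin library.

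Upstream of the ligases, the conjugating enzymes were mostly higher or not called. UBE2S (chromosome 19, 55399745 to 55407788), which extends ubiquitin chains with the anaphase-promoting complex, had 135, 121 and 117 FPKM in bufotalin libraries, against 61.4, 59.8 and 45.03 FPKM in control libraries (1.16, SE 0.14, adjusted p 4.95e-05). Its lowest bufotalin value, 117 FPKM, was well above its highest control value, 61.4 FPKM, and it was the most abundant UBE2 member. The UBE2S locus overlaps that of RPL28, so reads of the overlap cannot be told apart. UBE2Q1 rose, averaging 30.8 ± 1.78 FPKM in bufotalin and 17.6 ± 2.45 FPKM in control libraries (0.78), while UBE2Q2, of the same subfamily, averaged 3.22 ± 0.702 FPKM in bufotalin and 7.40 ± 2.004 FPKM in control libraries (-0.98). UBE2Q2 has near-identical copies, so its share of reads is uncertain, and its call was lost under quantile normalization at -0.51. UBE2L3, the partner of HECT and RING-between-RING ligases, averaged 21.1 ± 3.09 FPKM in bufotalin and 14.6 ± 3.54 FPKM in control libraries (0.52), and its call was lost under quantile normalization, without bufotalin replicate 1 or 3, and without control replicate 3 (0.32). UBE2B, an E2 of the RAD6 pathway, averaged 24.9 ± 2.43 FPKM in bufotalin and 18.7 ± 5.68 FPKM in control libraries, and UBE2G2, an E2 of endoplasmic reticulum-associated degradation, averaged 27.2 ± 3.53 FPKM in bufotalin and 24.4 ± 1.76 FPKM in control libraries. The groups of UBE2B and UBE2G2 overlapped, and neither was called (0.43 and 0.15, adjusted p 0.0521 and 0.278), though both were called after scaling to equal medians, and UBE2B also without control replicate 1 (0.65). Of the E1 genes, NAE1, a subunit of the enzyme that activates the cullin modifier NEDD8, fell (-0.94), and UBA2, of the SUMO enzyme, was not called (0.19), except after scaling to equal medians (0.36).

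Among TRIM genes, 13 falls stood beside 5 rises, and most falls were larger than the rises. TRIM15, a RING ligase found at focal adhesions, had 1.72, 1.72 and 1.21 FPKM in bufotalin libraries, against 10.5, 10.3 and 8.84 FPKM in control libraries (-2.10, SE 0.13, adjusted p 1.84e-06). TRIM16L and its longer relative TRIM16 are near-identical in part, so their split is uncertain. TRIM16L had 6.002, 10.7 and 11.6 FPKM in bufotalin libraries, against 28.3, 46.02 and 42.8 FPKM in control libraries (-1.96, SE 0.26, adjusted p 0.000159), and TRIM16 had 8.29, 11.1 and 8.74 FPKM in bufotalin libraries, against 38.7, 13.9 and 31.1 FPKM in control libraries (-1.37, SE 0.36, adjusted p 0.00882). Control library 2 had the lowest TRIM16 and the highest TRIM16L value of the control group. The sum of both genes was 14.3 to 21.8 FPKM in bufotalin and 59.9 to 73.9 FPKM in control libraries, so it spread less among controls than either gene did.

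The largest TRIM rise was that of TRIM35, with 11.6, 11.6 and 10.7 FPKM in bufotalin libraries, against 5.71, 5.60 and 7.35 FPKM in control libraries (0.78, SE 0.12, adjusted p 0.000249). TRIM28, the corepressor that KRAB zinc finger proteins recruit and the most abundant TRIM member, had 131, 135 and 122 FPKM in bufotalin libraries, against 80.7, 90.7 and 95.4 FPKM in control libraries (0.54, SE 0.11, adjusted p 0.00151). TRIM11 rose, averaging 14.1 ± 0.898 FPKM in bufotalin and 9.70 ± 1.09 FPKM in control libraries (0.50). All 3 had bufotalin values above every control value. TRIM33, a relative of TRIM28 that acts on SMAD proteins, averaged 29.4 ± 8.90 FPKM in bufotalin and 18.4 ± 1.73 FPKM in control libraries (0.60). Its groups overlapped, since bufotalin replicate 1 was at 19.3 FPKM beside 32.7 and 36.1 FPKM in the other bufotalin libraries and below the highest control value of 20.01 FPKM, and its call ended without bufotalin replicate 2 or 3 or control replicate 1 or 3. TRIM26 rose by 0.45 on the log2 scale, a call lost without bufotalin replicate 1 or control replicate 2. TRIM27 was not called at 0.16, although its groups did not overlap, and was called after scaling to equal medians (0.33).

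The remaining TRIM falls ranged from TRIM65, which ubiquitinates the RNA sensor MDA5, at -0.76 to TRIM10 at -1.36. TRIM29 averaged 27.3 ± 4.56 FPKM in bufotalin and 52.8 ± 0.829 FPKM in control libraries (-0.94), and TRIM2, known for its role in axons, averaged 4.90 ± 0.479 FPKM in bufotalin and 10.3 ± 0.313 FPKM in control libraries (-0.94). TRIM59 (-1.12) and TRIM45 (-1.17) fell more than 2-fold. TRIM45 averaged 0.645 ± 0.0400 FPKM in bufotalin and 2.72 ± 0.412 FPKM in control libraries. With a pseudocount of 0.01 FPKM the log2 fold changes of these low genes were larger, at -2.05 for TRIM45, -2.93 for TRIM10 and -2.77 for TRIM31.

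A run of TRIM genes on chromosome 6, in the class I region, held neighbours that moved in opposite directions. RNF39 (30070266 to 30075887) rose and TRIM26 (30184455 to 30213427) rose, while the genes between them, TRIM31, TRIM10 and TRIM15, fell. TRIM31 and TRIM10 passed the minimum only through their control level, so they could not have been called higher. The TRIM26 call was lost without bufotalin replicate 1 or control replicate 2. TRIM40, also between them, was too low to be tested, with 0.0522, 0.0353 and 0.109 FPKM in bufotalin libraries, against 0.554, 0.423 and 0.784 FPKM in control libraries. TRIM31 averaged 0.386 ± 0.225 FPKM in bufotalin and 2.38 ± 0.515 FPKM in control libraries (-1.29), and TRIM10, known from mouse erythroid cells, averaged 0.298 ± 0.0495 FPKM in bufotalin and 2.33 ± 0.325 FPKM in control libraries (-1.36). All positions are on GRCh38. Elsewhere on the genome, members closer than 100 kb moved the same way in 3 pairs where both were tested: FBXO2 and FBXO6 on chromosome 1, PSME1 and PSME2 on chromosome 14, and UBE2Q2 and FBXO22 on chromosome 15, all lower. TRIM11 rose and RNF187, 80.5 kb away, fell (-0.96).

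RNF genes rose and fell in equal number. RNF24 (chromosome 20, 3903817 to 4015558) had the highest log2 fold change of all members, 1.31, with 8.86, 5.16 and 7.13 FPKM in bufotalin libraries, against 1.64, 1.96 and 3.13 FPKM in control libraries (SE 0.21, adjusted p 0.000356 by limma). RNF39 averaged 1.86 ± 0.247 FPKM in bufotalin and 0.774 ± 0.0533 FPKM in control libraries (0.69), and RNF6, which ubiquitinates the androgen receptor, had 13.1, 16.3 and 19.3 FPKM in bufotalin libraries, against 9.87, 10.1 and 9.31 FPKM in control libraries (0.66). None of these had overlapping groups, although the locus of RNF24 overlaps that of PANK2, so reads of an overlap cannot be told apart. RNF5, a ligase anchored in the endoplasmic reticulum and the most abundant RNF member, averaged 63.4 ± 9.54 FPKM in bufotalin and 49.9 ± 3.34 FPKM in control libraries (0.33), and its call was lost under quantile normalization at 0.06 and with each of bufotalin replicates 1 and 2 and control replicates 1 and 2 left out. It has near-identical copies.

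The largest RNF falls were those of RNF141, RNF157 and RNF130. RNF141 had 8.70, 7.87 and 7.75 FPKM in bufotalin libraries, against 23.4, 21.3 and 21.6 FPKM in control libraries (-1.34, SE 0.11, adjusted p 4.80e-06). RNF157 had 1.14, 0.755 and 1.22 FPKM in bufotalin libraries, against 4.21, 3.38 and 3.16 FPKM in control libraries (-1.17), and RNF130, a membrane-bound ligase, had 4.80, 5.42 and 3.50 FPKM in bufotalin libraries, against 13.9, 13.3 and 7.58 FPKM in control libraries (-1.15). None of these 3 genes had overlapping groups, and RNF130 had 5.42 FPKM as its highest bufotalin and 7.58 FPKM as its lowest control value. RNF14, a RING-between-RING ligase first known as an androgen receptor coactivator, averaged 10.9 ± 0.568 FPKM in bufotalin and 24.3 ± 1.79 FPKM in control libraries (-1.09). RNF135, which ubiquitinates the RNA sensor RIG-I, averaged 3.60 ± 0.288 FPKM in bufotalin and 8.40 ± 0.791 FPKM in control libraries (-1.03). The other falls were RNF19A (-0.88), RNF123 (-0.54), RNF187, RNF212, RNF214 (-0.80) and RNF215 (-0.97), and under quantile normalization the calls of RNF212, RNF214 and RNF215 were lost.

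Of the remaining RNF rises, RNF40, which with RNF20 ubiquitinates histone H2B, averaged 26.4 ± 2.93 FPKM in bufotalin and 18.1 ± 3.06 FPKM in control libraries (0.53), and RNF103, of the endoplasmic reticulum, averaged 13.8 ± 0.655 FPKM in bufotalin and 9.42 ± 0.861 FPKM in control libraries (0.50). The others, RNF25, RNF44, RNF149, RNF219, RNF223 and RNF227, had log2 fold changes of 0.31 to 0.65. The RNF25 call was lost without bufotalin replicate 3, and that of RNF149 without control replicate 1 and under quantile normalization. RNF111, the ligase Arkadia of TGF-beta signalling, was 11.5 ± 1.25 FPKM in bufotalin and 11.02 ± 2.31 FPKM in control libraries (0.07, adjusted p 0.658 by limma), and RNF220 was 28.2 ± 4.51 FPKM in bufotalin and 23.3 ± 4.37 FPKM in control libraries (0.27, adjusted p 0.130). Both had overlapping groups and neither was called, though RNF220 was called without control replicate 2 (0.40) and after scaling to equal medians (0.44). RNF165 fell by 0.45 on the log2 scale at a mean under 1 FPKM in bufotalin libraries, and it had 0.17 under quantile normalization. Its call was also lost without bufotalin replicate 1 and after scaling to equal medians (-0.28).

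The cullin scaffold CUL7 (chromosome 6, 43037617 to 43053945) was among the deepest falls. It had 1.39, 1.33 and 1.56 FPKM in bufotalin libraries, against 9.22, 8.27 and 9.52 FPKM in control libraries (-2.04, SE 0.11, adjusted p 1.20e-06), and over the alternatives the log2 fold change lay between -2.65 and -1.56. FBXW8, the F-box protein that works with CUL7, had 2.15, 2.83 and 2.55 FPKM in bufotalin libraries, against 6.81, 6.01 and 7.20 FPKM in control libraries (-1.13, SE 0.12, adjusted p 2.61e-05). CUL9, a large cullin that holds p53 in the cytoplasm, had 1.26, 1.46 and 1.24 FPKM in bufotalin libraries, against 3.69, 3.57 and 4.85 FPKM in control libraries (-1.11, SE 0.13, adjusted p 3.66e-05). In each of these genes every bufotalin value was less than every control value by a wide margin. The CUL7 locus overlaps that of KLC4. FBXW2, the most abundant FBXW member, averaged 17.1 ± 1.54 FPKM in bufotalin and 24.5 ± 1.89 FPKM in control libraries (-0.50).

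F-box genes together fell in 10 and rose in 6 of 16 cases, with a median of -0.58. That is 62.5% lower and 37.5% higher, beside 48.8% and 44.3% of all genes tested. FBXO2, which recognises N-glycans on misfolded glycoproteins, had 15.9, 14.7 and 11.4 FPKM in bufotalin libraries, against 41.8, 47.4 and 35.004 FPKM in control libraries (-1.50, SE 0.15, adjusted p 1.87e-05), and it was the most abundant FBXO member. Its neighbour and relative FBXO6 averaged 5.69 ± 1.14 FPKM in bufotalin and 11.5 ± 0.941 FPKM in control libraries (-0.91). FBXO4 and FBXO31 have both been tied to cyclin D1: FBXO4 fell, averaging 4.21 ± 0.194 FPKM in bufotalin and 11.3 ± 1.53 FPKM in control libraries (-1.23), while FBXO31 averaged 10.2 ± 0.0952 FPKM in bufotalin and 7.71 ± 1.37 FPKM in control libraries (0.37), a call lost without control replicate 1 or 2. FBXO33 was the largest FBXO rise without overlap, at 8.21 ± 0.733 FPKM in bufotalin and 4.81 ± 0.658 FPKM in control libraries (0.67). FBXO32, the muscle atrophy ligase atrogin, had 4.50, 5.01 and 6.40 FPKM in bufotalin libraries, against 4.64, 2.03 and 2.01 FPKM in control libraries (0.75). Control replicate 1 was inside the bufotalin range of FBXO32, and the call ended without bufotalin replicate 3 or control replicate 2 or 3. FBXO22 likewise overlapped, since control replicate 1 at 6.72 FPKM was below bufotalin replicate 1 at 6.92 FPKM, and without control replicate 2 its log2 fold change was -0.37 and not called. Its call also ended without bufotalin replicate 2 or 3, under quantile normalization and after scaling to equal medians. Without control replicate 2, only 1 FBXO gene was called higher in place of 4. FBXO24 was -0.37, had 0.18 under quantile normalization and was not called after scaling to equal medians (-0.20), and FBXO9 (-0.85) fell. FBXO45 rose (0.35), a call lost without bufotalin replicate 2 or control replicate 2.

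The FBXL genes split. FBXL18 averaged 5.43 ± 0.330 FPKM in bufotalin and 2.63 ± 0.188 FPKM in control libraries (0.83). FBXL17, which acts in quality control of BTB dimers, averaged 1.60 ± 0.0848 FPKM in bufotalin and 4.39 ± 0.312 FPKM in control libraries (-1.05), and FBXL4, which restrains mitophagy, averaged 2.38 ± 0.177 FPKM in bufotalin and 5.76 ± 0.505 FPKM in control libraries (-0.998). Under quantile normalization FBXL17 had -0.38 and FBXL4 -0.41, both still called.

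Among CUL3 adaptors of mitosis, directions differed. KLHL21 (chromosome 1, 6590724 to 6623938), which acts on Aurora B in anaphase, had 34.4, 37.7 and 31.3 FPKM in bufotalin libraries, against 12.2, 12.2 and 16.8 FPKM in control libraries (1.28, SE 0.14, adjusted p 3.25e-05). KLHL9 and KLHL13, which work together on Aurora B, both fell, with 5.35, 5.24 and 4.29 FPKM in bufotalin libraries, against 14.3, 13.4 and 11.3 FPKM in control libraries for KLHL13 (-1.23, SE 0.13, adjusted p 1.88e-05) and an average of 4.70 ± 0.412 FPKM in bufotalin and 9.72 ± 0.866 FPKM in control libraries for KLHL9 (-0.91). KLHL22, an adaptor known from the spindle checkpoint and from mTORC1 signalling, had 3.32, 1.91 and 2.62 FPKM in bufotalin libraries, against 6.51, 7.72 and 8.24 FPKM in control libraries (-1.24, SE 0.16, adjusted p 6.61e-05). None of these 4 genes had overlapping groups, and their calls were kept in all alternatives. The KLHL21 locus overlaps that of PHF13. KLHL24 rose, averaging 17.3 ± 0.972 FPKM in bufotalin and 7.93 ± 1.43 FPKM in control libraries (1.05), and KLHL15, the most abundant KLHL member, rose, averaging 28.2 ± 2.58 FPKM in bufotalin and 21.4 ± 1.81 FPKM in control libraries (0.38). KLHL17 (-0.84), KLHL36 (-1.10) and KLHL10 (-0.73) fell, though KLHL10 had -0.16 and no call under quantile normalization.

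Deubiquitinases of the USP class rose in 4 and fell in 5 cases. USP2 (chromosome 11, 119355215 to 119381711), which stabilises cyclin D1 and cycles with the circadian clock, had 4.53, 4.23 and 3.97 FPKM in bufotalin libraries, against 1.34, 1.47 and 1.31 FPKM in control libraries (1.14, SE 0.11, adjusted p 1.11e-05). USP9X, known for protecting MCL1 and the most abundant USP member, had 37.4, 41.3 and 46.2 FPKM in bufotalin libraries, against 73.1, 66.2 and 79.4 FPKM in control libraries (-0.79, SE 0.12, adjusted p 0.000203). The values of the groups were far apart in both genes, with USP2 higher and USP9X lower in every bufotalin library. USP12, which acts with WDR48, averaged 20.1 ± 1.21 FPKM in bufotalin and 13.8 ± 0.586 FPKM in control libraries (0.51). USP42 (0.44) and USP38 (0.40) rose as well, the USP38 call being lost without control replicate 1. USP28, a deubiquitinase of MYC, averaged 9.19 ± 1.47 FPKM in bufotalin and 15.02 ± 1.97 FPKM in control libraries (-0.66). USP20 averaged 3.48 ± 0.407 FPKM in bufotalin and 6.53 ± 0.591 FPKM in control libraries (-0.75) and USP35 averaged 0.575 ± 0.0172 FPKM in bufotalin and 1.49 ± 0.122 FPKM in control libraries (-0.66). Under quantile normalization USP20 had -0.26 and USP35 0.0099, and neither was called.

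**Figure D4:**
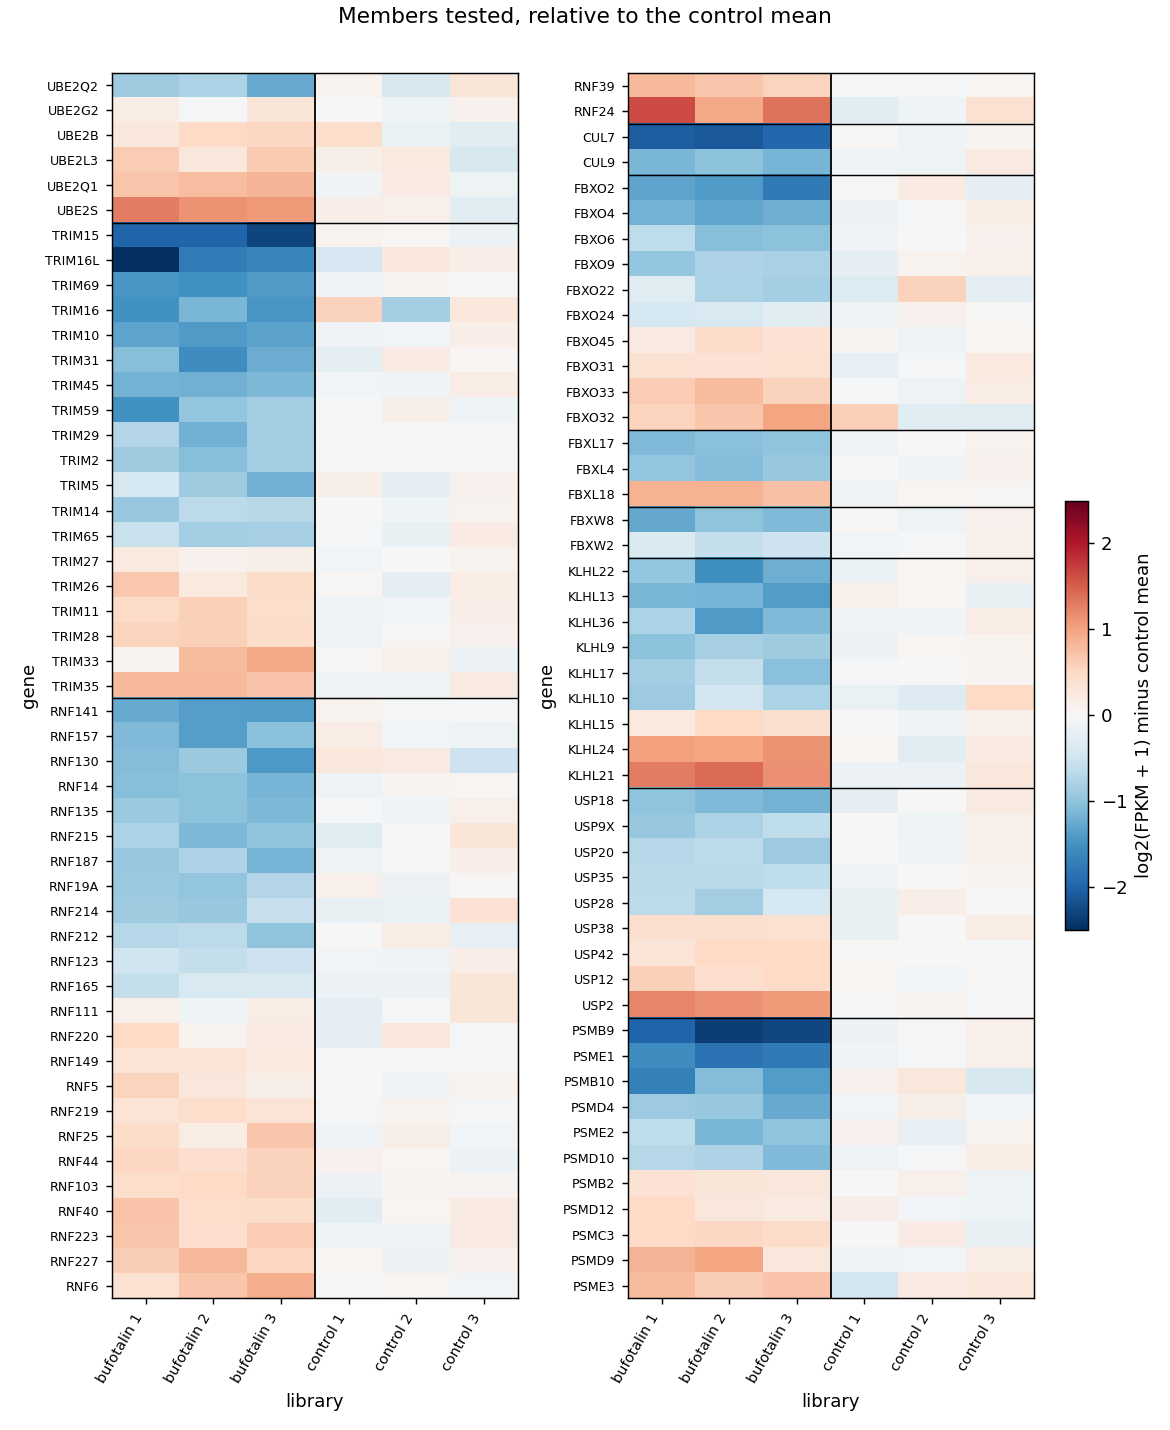
Tested members (rows, ordered by prefix and fold change) in each library (columns), as log2(FPKM + 1) minus the mean of the 3 control libraries, red higher and blue lower. The 3 bufotalin columns show rises in paler shades than most falls.

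Deubiquitinases outside the USP class rose in 7 and fell in 5 of 13 cases, with a median of 0.34. Over all genes tested, 44.3% were called higher and 48.8% lower. TNFAIP3, the NF-kappaB inhibitor A20, averaged 24.2 ± 3.19 FPKM in bufotalin and 12.2 ± 0.897 FPKM in control libraries (0.93), and OTUD1 averaged 7.84 ± 0.384 FPKM in bufotalin and 3.91 ± 0.516 FPKM in control libraries (0.85). JOSD2 (-1.09) and BRCC3, of the BRCA1-A complex (-1.01), fell. OTUB2 was at 0.358 ± 0.102 FPKM in bufotalin and 1.42 ± 0.324 FPKM in control libraries (-0.83), and its call was lost under quantile normalization, with which 2 genes of this list were called lower. Of 7 HECT ligases, 3 rose and 4 fell, with HECW1 at 1.39 ± 0.101 FPKM in bufotalin and 6.91 ± 1.04 FPKM in control libraries (-1.72) and HECTD2 at -1.16.

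The other RING and U-box ligases, whose names fall outside the rule, rose in 16 and fell in 12 of 32 cases, with a median of 0.27. That is 50% higher and 37.5% lower, beside 44.3% and 48.8% of all genes tested. MEX3D rose, averaging 15.5 ± 0.693 FPKM in bufotalin and 5.14 ± 0.877 FPKM in control libraries (1.44). UNK (-1.38), MIB1, which ubiquitinates Notch ligands (-1.20), and DTX3L, the partner of PARP9 (-1.29), fell. Without control replicate 2 the rises in this list numbered 9. Other cullin cores and adaptors rose in 9 and fell in 11 of 22 cases, and SPSB2 averaged 1.01 ± 0.276 FPKM in bufotalin and 8.54 ± 1.15 FPKM in control libraries (-2.25). ZYG11B (-1.62), KCTD21 (-1.34) and DCAF6 (-0.998) fell. Of 3 subunits of the anaphase-promoting complex in the table, ANAPC16 (-1.003) and ANAPC11, its RING subunit (-0.89), fell and CDC26 rose (0.58).

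Lists that cross the classes were mixed as well, beside 44.3% of all genes tested called higher and 48.8% lower. In endoplasmic reticulum-associated degradation 5 of 13 genes rose and 5 fell, with a median of 0.16, and 8 were called higher after scaling to equal medians. AUP1, which brings UBE2G2 to the membrane, averaged 73.7 ± 5.75 FPKM in bufotalin and 29.1 ± 1.17 FPKM in control libraries (1.31), while the ligase TMEM129 (-1.64) and EDEM2, a mannose-trimming factor (-1.17), fell. Ubiquitin genes of mitochondrial quality control rose in 3 and fell in 2 of 5 cases, with 1 called lower under quantile normalization. PINK1, the kinase that phosphorylates ubiquitin on damaged mitochondria, averaged 29.7 ± 4.12 FPKM in bufotalin and 15.8 ± 0.683 FPKM in control libraries (0.86), and the outer membrane ligase MUL1 averaged 22.1 ± 3.12 FPKM in bufotalin and 10.7 ± 1.69 FPKM in control libraries (0.98). Cell cycle ubiquitin enzymes rose in 7 and fell in 6 of 13 cases, and those of DNA damage rose in 2 and fell in 2 of 6, with RAD18, the PCNA ligase, at 0.31. Without bufotalin replicate 3 or control replicate 2 the RAD18 call was lost (0.27 and 0.24), and 1 gene of the DNA damage list was called higher. Ubiquitin-like proteins and their proteases rose in 4 and fell in 4 of 10 cases, UFM1 higher (0.77) and its ligase UFL1 lower (-0.95), SENP7, a SUMO protease (-1.47), and ATG10 (-0.86) lower. Without bufotalin replicate 2 the rises in this list numbered 2. Over all listed genes that are not members, 52 of 109 rose and 45 fell, or 47.7% and 41.3%, with a median of 0.28.

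**Figure D5:**
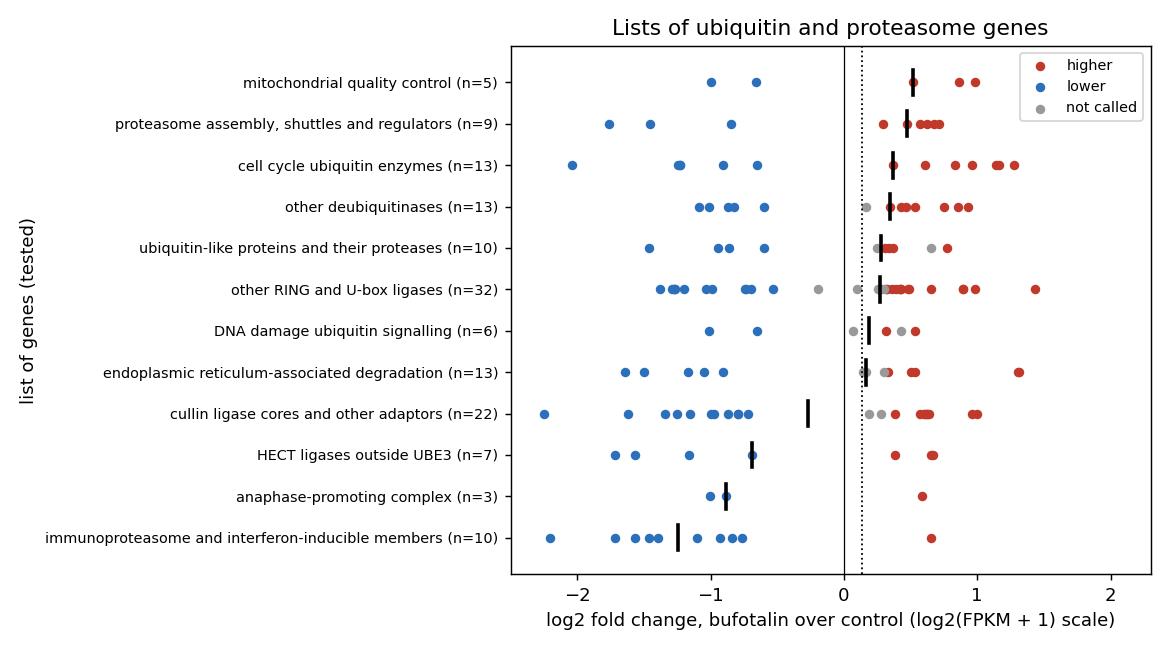
Log2 fold change of bufotalin over control (horizontal axis, log2(FPKM + 1) scale) of the genes tested in each list with at least 3 of them (vertical axis). Points are genes, red called higher, blue called lower and grey not called, bars are list medians, and the dotted line is the median of all genes tested. The immunoproteasome and interferon-inducible list has the lowest median, -1.25, and 9 of its 10 tested genes fell. The lists were chosen with earlier results of these data known.

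The authors' separate table of 536 long noncoding transcripts, of which 465 were tested, held 6 noncoding transcripts of 4 member genes. Of all transcripts tested there, 29.2% were called higher and 44.1% lower, with a pseudocount of 0.1 FPKM. TRIM16L-216 averaged 0.0347 ± 0.0225 FPKM in bufotalin and 6.24 ± 5.295 FPKM in control libraries, and TRIM16L-207 averaged 0.0324 ± 0.0414 FPKM in bufotalin and 1.403 ± 0.471 FPKM in control libraries, and both fell. TRIM16L-212 was listed at 0 in all 3 bufotalin libraries, with 2.26, 1.05 and 0 FPKM in control libraries, and was not called. The transcripts of TRIM16L that were called moved the same way as its FPKM per gene. Both passed the minimum of 0.1 FPKM only through their control level, so they could not have been called higher.

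CUL9-203 went the other way from its gene: it was at 0.462, 0.639 and 0.248 FPKM in bufotalin libraries and listed at 0 in all 3 control libraries, and it was called higher, while CUL9 fell. RNF212-215 was listed at 0 in all 3 bufotalin libraries and at 0.215, 0.606 and 0.142 FPKM in control libraries, and it was called lower, as was RNF212 (-0.79), a gene of meiotic recombination. TRIM28-209 was at 0, 2.34 and 1.47 FPKM in bufotalin libraries and listed at 0 in control libraries, without a call. CUL9-203 and TRIM28-209 passed the minimum only through their bufotalin level, and RNF212-215 only through its control level. All of these values are low, and transcripts of the same gene share exons, so the assignment of reads between them is uncertain.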

How the data were processed

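Total RNA of 3 bufotalin and 3 control libraries was prepared with TRIzol and a NEBNext Ultra kit, per the labels' protocols. Deposited by the authors were FPKM per gene (mRNA) and per transcript (long noncoding RNA), in both cases in tables labelled as differential. Neither the rule of that selection nor the strandedness is given in the sources used here. Tools named in the submitters' processing notes were DESeq2 1.20.0, featureCounts 1.5.0-p3, HISAT2 2.0.5, CASAVA 1.8 and fastp, with the GRCh38 build, and no role is stated for any of them. Depth is unknown, so no counting interval is given.

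The whole table was fitted on log2(FPKM + 1) with limma 3.58.1 in R 4.3.3 (trended, robust empirical Bayes, two-sided), leaving out genes whose mean over 6 libraries was under 0.5 FPKM, with Benjamini-Hochberg adjustment over all genes tested and a threshold of 0.05. For long noncoding transcripts the pseudocount and the minimum were each 0.1 FPKM. The fit was tested on simulated data. Summaries used Python 3.11.15, pandas 2.3.3, numpy 2.4.6 and matplotlib 3.10.9. Members were taken by symbol, and all 104 matched the gene reference. The members and lists were chosen with earlier results of these data known, and the table was selected on these libraries, so counts are not independent evidence.

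Named members were the 3 largest rises and falls of each prefix with at least 15 tested members and the largest of each other prefix, among called members without overlap whose mean reached 1 FPKM. The most abundant member of each prefix, all CUL and PSM members, uncalled members and up to 4 genes of each list by smallest p were added. Other genes named were chosen after their values were seen. Alternatives were pseudocounts of 0.1 and 0.01, no minimum, a minimum of 1 FPKM, quantile normalization, equal medians, limma without trend, a replicate block and each library left out. Some genes that this rule names are not reported here. The small RNA table was not used here.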

Additional observations from a re-analysis of the deposited data

How the results depend on the processing

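Over 14 alternatives, 68 of 93 called members kept their call and direction wherever they were tested, 24 higher and 44 lower. In 3 members the sign changed in a setting, without a call in the other direction. Members called higher numbered 31 to 42 and lower 44 to 59 over the alternatives. Quantile normalization ended the calls of 18 members: FBXO24 had 0.18, RNF165 0.17 and USP35 0.0099 as log2 fold change, against falls otherwise, and 15 kept their sign without a call. With it, the median log2 fold changes were 0.035 for all genes, -0.21 for members, -0.65 for TRIM, -0.99 for CUL, -0.071 for FBXO, 0.052 for FBXL, -0.58 for FBXW, -0.33 for KLHL and 0.0099 for USP, and 0 UBE2 and 3 USP genes were called lower and 1 PSM gene higher. After scaling to equal medians they were 0.31 for all genes, -0.49 for members, 0.65 for UBE2, -0.76 for TRIM, 0.34 for RNF, -1.40 for CUL, -0.34 for FBXO, -0.024 for FBXL, -0.64 for FBXW, -0.66 for KLHL and -0.48 for USP, and 5 UBE2 genes were called higher. With pseudocounts of 0.1 and 0.01 FPKM the medians were -0.83 with both for members, -1.06 and -1.07 for TRIM, -2.05 and -2.12 for CUL, -0.79 and -0.83 for FBXO, -0.31 and -0.32 for FBXL, -0.95 and -0.97 for FBXW, and -1.03 and -1.05 for KLHL. Without a minimum they were -0.14 for all genes, -0.56 for members, -0.84 for TRIM and -0.58 for PSM, and with a minimum mean of 1 FPKM 0.25 for all genes and -0.65 for FBXO. Leaving out each library in turn gave medians of -0.27 to 0.18 for all genes, -0.75 to -0.58 for members, 0.30 to 0.62 for UBE2, -0.98 to -0.82 for TRIM, -1.63 to -1.50 for CUL, -0.63 to -0.34 for FBXO, -0.23 to -0.14 for FBXL and -0.86 to -0.76 for FBXW. The counts called higher were then 1 to 4 for FBXO, 1 without control replicate 2, and 3 to 5 for PSM, 3 without bufotalin replicate 1 or control replicate 3. The median of all genes was below 0 without bufotalin replicate 1, 2 or 3 (-0.17, -0.059 and -0.27). The cause of these changes was not tested.

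Replicate numbers are shared by the groups, but same-numbered libraries did not deviate together: their correlations over 4273 genes were -0.017, 0.026 and -0.052. The replicate block therefore rests on a number only, and with it 38 members were called higher and 55 lower and no member's call changed. FPKM carry no depth, so the precision of low values, such as those of PSMB8 or TRIM69, cannot be set.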
